A study of Mus musculus with 75 samples.

Results

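The genes described here are 32 members of the pathways that break down or make glucose in mouse kidney: 24 of glycolysis with the lactate and sugar entry steps, 3 of gluconeogenesis and 5 of the pentose phosphate pathway. They were taken by symbol from the deposited table of raw counts, which lists 32245 genes in 75 whole-kidney libraries, and all 32 were found. The libraries came from mice killed 3 days after unilateral ureteral obstruction (UUO), a surgical model of chronic kidney disease in which 1 ureter is tied, and from their unobstructed contralateral (CL) kidneys. The study asked how activation of the endothelial receptor TIE2, or loss of the growth factor PDGFB, alters the response to UUO.

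The libraries fall into 3 arms of 4 groups. In the first, mice received a human IgG Fc control (CL, n = 8, and UUO, n = 8) or ABTAA, an antibody that binds angiopoietin-2 and activates TIE2 (CL, n = 7, and UUO, n = 7). In the second, Veptp iECKO mice carried a floxed Veptp gene, which encodes a phosphatase acting on TIE2, with a tamoxifen-inducible Cre driven by the endothelial Cdh5 promoter (CL, n = 6, and UUO, n = 8). Their Veptp WT controls were littermates with 1 floxed allele and the same Cre, not induced (CL, n = 7, and UUO, n = 8). In the third, Pdgfb iKO mice carried floxed Pdgfb with a tamoxifen-inducible Cre active in the whole body, so that the deletion was not limited to the endothelium. Pdgfb WT mice carried 1 or both floxed alleles and no Cre, and every Pdgfb group held 4 libraries. All mice were adult and of both sexes. Those of the first arm were C57BL6/J or WT mice of the other breedings, which were on a mixed background. The Veptp WT UUO libraries outnumber the mice that the study's methods give for that genotype. The Pdgfb WT CL libraries include 2 from sham-operated kidneys, which the labels do not mark.

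Glycolysis splits glucose into pyruvate, which lactate dehydrogenase can turn into lactate. Gluconeogenesis runs the other way through enzymes that bypass the irreversible steps, and the pentose phosphate pathway draws off glucose 6-phosphate to make NADPH and ribose 5-phosphate. In the kidney the proximal tubule is a site of gluconeogenesis and uses little glucose as fuel, whereas later tubule segments depend more on glycolysis. In bulk tissue fewer cells of a type and less RNA per cell cannot be told apart.

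Totals ran from 172827 to 2341800 counts per library, with a median of 757897. On average the 32 genes together took between 1.26% and 1.37% of the counts in the 6 CL groups and between 0.908% and 1.15% in the 6 UUO groups. Values below are CPM, counts scaled to a common library total, and a difference was called when the adjusted p of edgeR's quasi-likelihood test over all genes tested in the arm was below 0.05. Veptp itself (symbol Ptprb) had medians of 61.5 CPM in Veptp WT CL and 33.7 in Veptp iECKO CL, and of 41.9 and 28.1 in UUO, with overlapping libraries and no call in either kidney (adjusted p = 1 in both). Pdgfb was not lower in CL libraries labelled Pdgfb iKO, at 16.6 to 24.9 CPM against 4.43 to 19.9 in Pdgfb WT, with overlap and no call (log2 difference 0.78, SE 0.33, adjusted p = 1). In UUO it lay at 33.4 to 40.6 against 43.2 to 57.8 (-0.47, SE 0.21, adjusted p = 0.124), and its UUO response was smaller by 1.26 in the libraries labelled iKO (SE 0.39, adjusted p = 0.0459), the direction of the label. Whether these counts come from the deleted part of either gene was not determined.

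The sequences just upstream of 4 members are shown: the 3 gluconeogenic members, among them G6pc, the member with the largest fall, and Hk2. Where Hk2 was tested it passed the low-count filter only through its UUO libraries, so its fitted rise is not ranked. They are the 250 bases before the RefSeq start of each gene in build GRCm38.p6, on the gene's own strand and read 5′ to 3′. Capitals mark ACGTG, the core of the hypoxia response element, and ACGTCA, the core of the cyclic AMP response element, on either strand.
G6pc (chr11:101367466-101367715, plus strand): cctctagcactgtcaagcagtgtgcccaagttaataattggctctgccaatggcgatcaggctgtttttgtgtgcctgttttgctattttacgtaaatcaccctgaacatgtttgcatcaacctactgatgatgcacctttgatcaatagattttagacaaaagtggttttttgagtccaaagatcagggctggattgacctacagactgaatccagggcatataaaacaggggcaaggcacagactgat
Pck1 (chr2:173152823-173153072, plus strand): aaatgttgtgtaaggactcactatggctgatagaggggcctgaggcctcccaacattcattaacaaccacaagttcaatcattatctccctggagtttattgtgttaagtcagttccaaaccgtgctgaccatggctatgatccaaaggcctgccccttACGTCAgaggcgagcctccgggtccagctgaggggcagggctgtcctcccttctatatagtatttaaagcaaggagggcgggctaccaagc
Fbp1 (chr13:62888283-62888532, minus strand): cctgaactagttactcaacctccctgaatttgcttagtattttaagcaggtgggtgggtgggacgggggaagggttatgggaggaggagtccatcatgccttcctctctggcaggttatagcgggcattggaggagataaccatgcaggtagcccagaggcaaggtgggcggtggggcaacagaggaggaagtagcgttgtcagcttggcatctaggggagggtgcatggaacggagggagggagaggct
Hk2 (chr6:82774455-82774704, minus strand): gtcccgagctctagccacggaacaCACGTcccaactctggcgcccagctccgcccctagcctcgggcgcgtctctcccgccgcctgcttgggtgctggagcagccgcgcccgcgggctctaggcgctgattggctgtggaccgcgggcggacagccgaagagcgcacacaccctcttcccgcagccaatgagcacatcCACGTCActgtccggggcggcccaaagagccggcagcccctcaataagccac
The Pck1 window held ACGTCA with its first base 91 bases before the start. The Hk2 window held ACGTG at 226 and at 52 bases before the start and ACGTCA at 51, and the last pair overlap. No match stood in the G6pc and Fbp1 windows. Counting a gene when any of its windows matched, 18.5% of 27025 genes held ACGTG and 7.29% held ACGTCA, against 13 and 5 of the 31 members with a window (Galm had none). The E-box CACGTG, which contains ACGTG, stood in 6.86% of genes and in 7 members, and GCGTG in 30.9% and 17 members. Of the 32851 single windows 16.6%, 6.47%, 6.02% and 28.2% held these motifs in the same order.

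Among the members UUO lowered G6pc most in every kind of mouse but those labelled Pdgfb iKO, and Pck1 and Fbp1 fell with it outside the Veptp arm. G6pc encodes the catalytic subunit of glucose-6-phosphatase, which releases free glucose. In IgG-treated mice its lowest, median and highest values were 198, 340 and 543 CPM in CL and 6.04, 60.7 and 104 in UUO. All UUO libraries lay below all CL libraries, and G6pc fell by 2.65 on the log2 scale (SE 0.30, adjusted p = 1.8e-08). With ABTAA it went from 214, 243 and 457 CPM to 46.7, 86.2 and 132, again without overlap (log2 fold change -1.80, SE 0.30, adjusted p = 2.84e-05). In Veptp WT mice it went from 191, 319 and 471 to 15.3, 87.5 and 141, without overlap (-1.89, SE 0.35, adjusted p = 0.000202), whereas the Veptp iECKO groups, at 126, 270 and 456 and at 32.2, 87.4 and 230, overlapped (-1.46, SE 0.36, adjusted p = 0.00851). The last value joins -2.36 within library names that hold a low line and -0.05 within plain names (adjusted p = 0.994), 2 forms described below, and its call was also lost at thinned depth.

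In Pdgfb WT mice the 4 CL libraries held 301, 282, 249 and 259 CPM of G6pc and the 4 UUO libraries 16.9, 29.8, 32.5 and 28.4. This was the largest fall of any member in any comparison with UUO (log2 fold change -3.32, SE 0.18, adjusted p = 3.06e-12). CL values in libraries labelled Pdgfb iKO were 244, 273, 225 and 214 and UUO values 214, 120, 126 and 145. The highest UUO library there stood just below the lowest CL library, and the log2 fold change was -0.70 (SE 0.17, adjusted p = 0.0132).

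Pck1 encodes the cytosolic phosphoenolpyruvate carboxykinase that commits carbon to glucose synthesis. Its lowest, median and highest CPM in IgG-treated mice were 1155, 1887 and 3127 in CL and 465, 578 and 1097 in UUO, and these did not overlap (log2 fold change -1.64, SE 0.25, adjusted p = 2.09e-06). ABTAA-treated mice had 1148, 1840 and 2630 against 344, 818 and 1524, with overlap (-1.14, SE 0.26, adjusted p = 0.001). That call was lost without the libraries holding both Xist and Y-linked counts, described below. In the Veptp arm Pck1 was not called, at -0.94 in WT (adjusted p = 0.0621) and -0.69 in iECKO (adjusted p = 0.299), and the groups overlapped. This depends on the form of the library name described below, with which the level of Pck1 differs: with the form as a term of the fit Pck1 fell by 1.05 in WT (adjusted p = 0.000233) and by 1.07 in iECKO mice (adjusted p = 0.000758), though within plain names alone it stood at -0.41 in iECKO mice (adjusted p = 0.833). It fell in Pdgfb WT mice, from 1650, 2289, 2375 and 2152 to 356, 526, 477 and 577 (-2.13, SE 0.25, adjusted p = 2.69e-07). In the libraries labelled Pdgfb iKO the CL values were 1189, 3078, 2350 and 2146 and the UUO values 1678, 1243, 1374 and 645, which overlapped, with a fold change of -0.83 (SE 0.25, adjusted p = 0.0409).

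Fbp1 encodes fructose-1,6-bisphosphatase, which reverses the phosphofructokinase step. In IgG-treated mice it fell from 1110, 1486 and 1853 CPM to 393, 530 and 873 without overlap (log2 fold change -1.37, SE 0.18, adjusted p = 1.8e-07), and with ABTAA from 1082, 1283 and 1735 to 542, 633 and 1201 with overlap (-0.77, SE 0.19, adjusted p = 0.00196), a call lost within plain names alone (-0.35, adjusted p = 0.343). The Veptp arm gave -0.86 in WT (adjusted p = 0.0636) and -0.56 in iECKO (adjusted p = 0.385) without the name form in the fit. With it Fbp1 fell by 0.88 in WT (adjusted p = 7.93e-05) and by 0.86 in iECKO mice (adjusted p = 0.000384), though within plain names alone it stood at -0.41 in iECKO mice (adjusted p = 0.819). Fbp1 went from 1250, 1641, 1553 and 1495 to 361, 406, 453 and 446 in Pdgfb WT mice (-1.83, SE 0.15, adjusted p = 9.72e-10). Libraries labelled Pdgfb iKO went from 1689, 1720, 1479 and 1225 to 1134, 980, 1104 and 805 (-0.61, SE 0.15, adjusted p = 0.0126), and neither Pdgfb pair of groups overlapped.

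**Figure D1:**
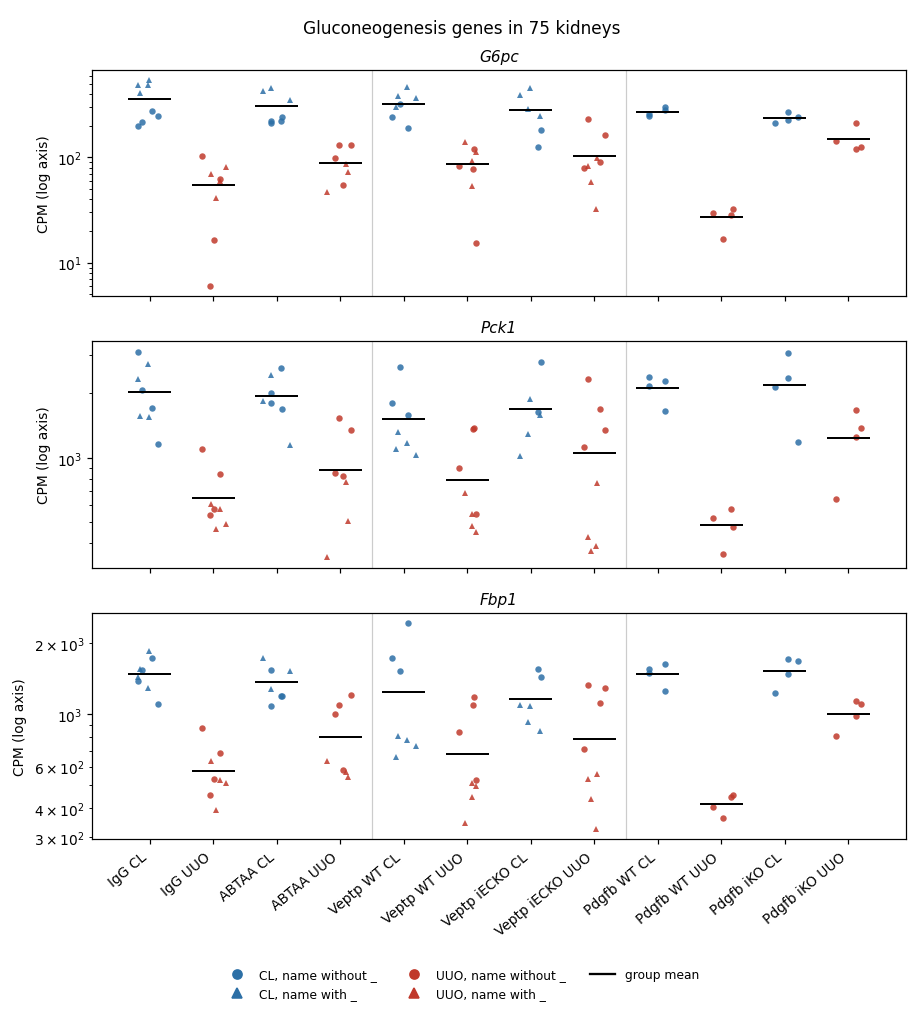
G6pc, Pck1 and Fbp1 in CPM (log axis) in each of the 75 libraries, by group; blue is CL, red is UUO, circles and triangles mark library names without and with a low line, and the bar is the group mean. G6pc in the UUO libraries labelled Pdgfb iKO (120 to 214 CPM) lies above all 4 Pdgfb WT UUO libraries (16.9 to 32.5 CPM).

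Proximal tubule markers moved with these falls. Of 10 proximal tubule markers, 10 were called lower in UUO in IgG-treated and in Pdgfb WT mice, 9 in ABTAA-treated, 7 in Veptp WT, 5 in Veptp iECKO mice and 4 in the libraries labelled Pdgfb iKO, and none was called higher. Their summed level went from 7200 to 13664 CPM in IgG-treated CL to 3697 to 5543 in UUO, from 9681 to 11103 to 2885 to 3611 in Pdgfb WT, and from 9033 to 11836 to 4809 to 9975 in the libraries labelled Pdgfb iKO. In the same order for ABTAA-treated, Veptp WT and Veptp iECKO mice the UUO sums were 4654 to 7250, 3870 to 6796 and 4210 to 9767. No marker of this list was at 0. Its part in the fall of the gluconeogenic genes was not tested.

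Among the glycolytic genes, falls after UUO outnumbered rises in 5 of the 6 kinds of mice. Of 22 tested, 1 rose and 12 fell with IgG and 0 rose and 8 fell with ABTAA. Of 23 tested in the other arms, 2 rose and 5 fell in Veptp WT, 1 and 4 in Veptp iECKO and 2 and 15 in Pdgfb WT mice, while none fell in those labelled Pdgfb iKO. Hk2 is 1 of the rises in each group of the last 2 arms and, in Veptp iECKO mice and the libraries labelled Pdgfb iKO, was the only glycolytic member called higher. It passed the low-count filter there only through its UUO libraries, so nothing is read from its place in these counts. Over all members in IgG-treated mice 3 of 29 rose and 15 fell, where 16.0% and 18.4% of all 9579 genes tested were called higher and lower. The median log2 fold change of the members was -0.46, against 0.01 over all genes tested. In ABTAA-treated mice 1 member rose and 11 fell (background 12.7% and 12.5%, median -0.40 against 0.00). In Veptp WT mice 3 of 31 rose and 6 fell (10.0% and 8.38% of 11916 genes, median -0.29 against -0.01), and in Veptp iECKO mice 1 rose and 5 fell (4.47% and 3.48%, median -0.33 against 0.01). In Pdgfb WT mice 3 rose and 18 fell (17.9% and 19.4% of 10923 genes, median -0.55 against 0.04). In the libraries labelled Pdgfb iKO 2 rose and 3 fell (3.95% and 2.41%, median -0.22 against 0.00), and the 3 that fell were the gluconeogenic genes. Their calls there were lost without either of 2 libraries for G6pc (adjusted p at most 0.067) and for Fbp1 (0.0611), and without any 1 of 8 for Pck1 (0.192).

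**Figure D2:**
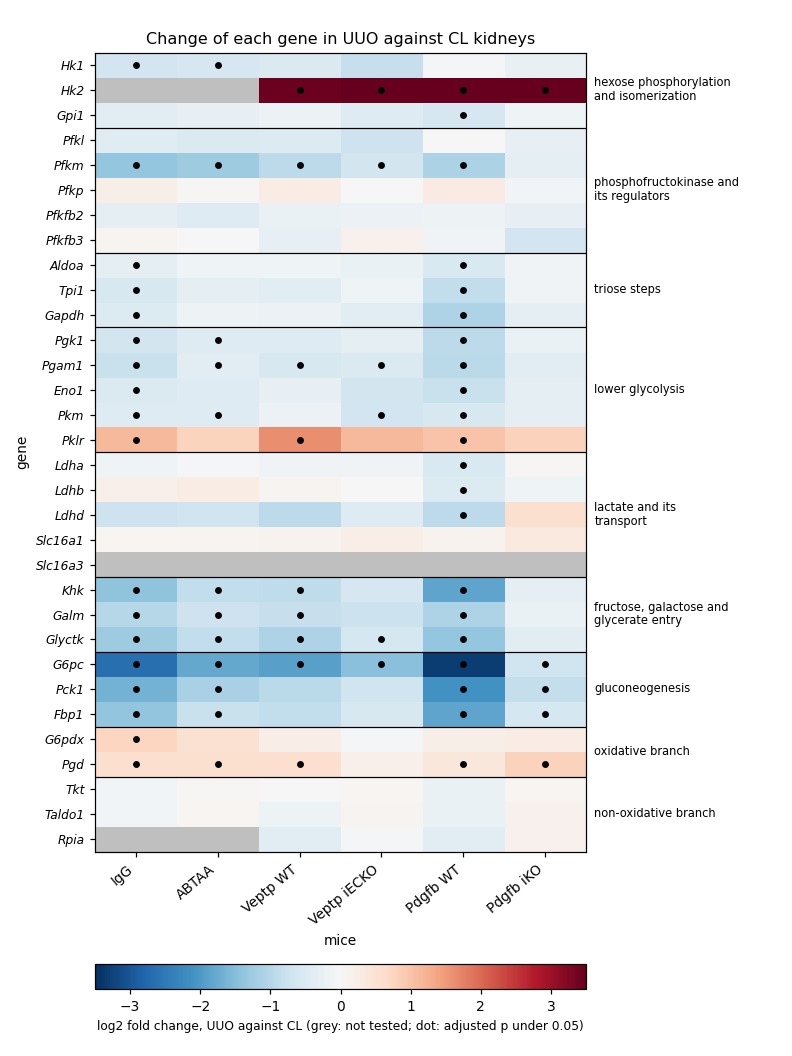
Log2 fold change of each of the 32 genes in UUO against CL kidneys (colour), in the 6 kinds of mice (columns), ordered by role; dots mark an adjusted p below 0.05 and grey cells were not tested. G6pc is lower and called in all 6 columns, and Hk2 is higher in the 4 columns in which it was tested, where it passed the low-count filter only through its high UUO libraries.

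The genes by which fructose, galactose and glycerate join the pathway include Khk, Galm and Glyctk, and these were called lower in IgG-treated, ABTAA-treated and both kinds of WT mice. Khk encodes ketohexokinase, which phosphorylates fructose. Its CPM in IgG-treated mice fell from 859, 1008 and 1167 to 325, 359 and 583 without overlap (log2 fold change -1.40, SE 0.17, adjusted p = 9.33e-08). In Pdgfb WT mice it fell from 889, 1216, 1087 and 1166 to 274, 295, 354 and 278 (-1.86, SE 0.14, adjusted p = 2.6e-10). In the libraries labelled Pdgfb iKO it went from 924, 1113, 903 and 932 to 854, 759, 813 and 648, which did not overlap but gave no call (-0.34, SE 0.14, adjusted p = 0.153). Khk also fell in ABTAA-treated (-0.85, adjusted p = 0.000559) and Veptp WT mice (-0.88, adjusted p = 0.0416). The last call was lost when any 1 of 8 libraries was left out (adjusted p at most 0.0939). Within plain library names alone, a form described below, the ABTAA call was lost (-0.54, adjusted p = 0.0974). With the form as a term of the fit Khk was also called lower in Veptp iECKO mice (-0.85, adjusted p = 0.000423), but not within plain names there (-0.50, adjusted p = 0.744).

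Glyctk encodes glycerate kinase and was called lower in 5 of the 6 UUO comparisons, all but that in the libraries labelled Pdgfb iKO (log2 fold change -0.40, adjusted p = 0.155). It went from 114, 146 and 188 CPM to 41.8, 62.8 and 80.7 in IgG-treated mice (-1.24, SE 0.16, adjusted p = 1.41e-07) and from 172, 208 and 246 to 74.7, 95 and 159 in Veptp WT mice (-1.08, SE 0.15, adjusted p = 1.09e-05). Veptp iECKO mice had 140, 183 and 210 in CL and 85.4, 118 and 136 in UUO (-0.61, SE 0.16, adjusted p = 0.0141), so that Glyctk did not overlap between kidneys in any of these 3 pairs of groups. Galm, the aldose mutarotase, fell by 0.99 with IgG, 0.73 with ABTAA, 0.80 in Veptp WT and 1.08 in Pdgfb WT mice on the log2 scale. Its Veptp WT call (adjusted p = 0.0294) was lost when any 1 of 8 libraries was left out (adjusted p at most 0.078). Within plain names its ABTAA call was lost (-0.62, adjusted p = 0.0663), as was that of Glyctk in Veptp iECKO mice (-0.40, adjusted p = 0.752). With the name form in the fit Galm was also called lower in Veptp iECKO mice (-0.61, adjusted p = 0.0045), where it stood at -0.02 within plain names (adjusted p = 0.997). In ABTAA-treated mice the direction of both Glyctk and Galm turned at thinned depth, as described below.

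At the hexokinase step Hk2 counts were higher in UUO in all 6 kinds of mice, whereas Hk1 was called lower in 2 of them. Hk2 encodes the inducible hexokinase 2. Its summed counts were 71 in UUO against 8 in CL libraries of IgG-treated mice, a depth-scaled ratio of 10.4 (exact 95% counting interval 4.99 to 25.0), and 56 against 10 in ABTAA-treated mice (6.75, 3.41 to 14.8). In the Veptp arm they were 109 against 8 in WT (11.5, 5.63 to 27.3) and 85 against 3 in iECKO (13.9, 4.61 to 68.9). All 3 CL counts of iECKO mice stood in 1 shallow library, so the ratio rests on pooling. The group means there were 2.26 CPM in CL and 9.82 in UUO. Pdgfb WT mice gave 85 against 3 (13.5, 4.47 to 66.9) and the libraries labelled Pdgfb iKO 25 against 1 (18.0, 2.95 to 740). These intervals cover counting error only. Hk2 passed the low-count filter in the Veptp and Pdgfb arms only through its UUO libraries, and there its 4 calls had fitted log2 fold changes of 3.44 to 3.77 (adjusted p between 0.000149 and 0.0317).

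The Hk2 values were low in every CL group and 1 library stood apart in 3 of them. In Pdgfb WT mice CL values were 0, 0, 4.43 and 0 CPM and UUO values 11.3, 12.5, 13.9 and 10.8, without overlap. In the libraries labelled Pdgfb iKO they were 0, 0, 0 and 0.997 in CL and 0, 3.36, 9.40 and 8.59 in UUO. That call (adjusted p = 0.0317) was lost when any 1 of 6 libraries was left out (adjusted p at most 0.102). In Veptp iECKO CL kidneys replicate 2 held 13.5 CPM, from 3 counts, and the other 5 libraries 0. Havcr1, which encodes a marker of tubular injury, stood at 244 CPM in that library and at no more than 15.4 in the others of the group. Without this library 9 members were called in Veptp iECKO mice after UUO in place of 6. The share of all genes called in that fit is not given, so this is not read as a change in the members.

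Hk1, the constitutive hexokinase, fell in IgG-treated mice from a median of 78.9 to 40.9 CPM (log2 fold change -0.66, SE 0.21, adjusted p = 0.012). With ABTAA it fell from 71.5 to 47.7 (-0.59, SE 0.21, adjusted p = 0.038). The call in ABTAA-treated mice was lost when any 1 of 7 libraries was left out (adjusted p at most 0.101). In the other 4 kinds of mice Hk1 was not called, at -0.81 to -0.08. The calls with IgG and ABTAA were lost without TMM factors. They also depend on the form of the library name, described below. With the form as a term of the fit Hk1 was also called lower in Veptp iECKO mice (-0.71, adjusted p = 0.013), and within plain names alone it was called in none of the 4 kinds of mice that have both forms (adjusted p between 0.371 and 0.949). The log2 ratio of Hk2 to Hk1 counts within a library was taken with 0.5 added to each count. Hk2 was at 0 in 5 of 8 CL libraries with IgG, 3 of 7 with ABTAA, 3 of 7 in Veptp WT, 5 of 6 in Veptp iECKO and 3 of 4 in both Pdgfb groups, where the ratio is set by the added 0.5 and by depth, so the differences that follow do not measure the size of a change. The ratio was higher in UUO by 3.88 in IgG-treated mice (exact 2-sided permutation p = 0.0001554, the smallest this design can give, adjusted p = 0.0021 over 27 comparisons of ratios). The difference was 3.37 in ABTAA-treated (permutation p = 0.00175, adjusted p = 0.00787), 3.59 in Veptp WT (adjusted permutation p = 0.0021) and 3.80 in Veptp iECKO mice (permutation p = 0.00466, adjusted p = 0.018). In Veptp iECKO mice it was 0.96 within plain library names and 5.05 within names with a low line, the 2 forms described below. In the Pdgfb arm it was 3.71 in WT and 2.49 in the libraries labelled iKO, where 4 libraries against 4 cannot give an exact p below 0.0286 (adjusted p = 0.0701 in both).

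Phosphofructokinase commits glucose to glycolysis, and its 3 isoforms differed. Pfkm, the muscle isoform, fell in 5 of the 6 comparisons. In IgG-treated mice it went from 36.2, 63.5 and 85.3 CPM to 18.1, 24.8 and 31.3 without overlap (log2 fold change -1.34, SE 0.20, adjusted p = 2.11e-06). The falls were -1.23 in ABTAA-treated, -0.93 in Veptp WT, -0.63 in Veptp iECKO and -1.10 in Pdgfb WT mice, with the Veptp iECKO call (adjusted p = 0.0267) lost when any 1 of 6 libraries was left out (adjusted p at most 0.077). Within plain library names Pfkm stood at 0.0082 in Veptp iECKO mice (adjusted p = 0.998) and within names with a low line at -1.05 (adjusted p = 0.000183). That call was also lost with the exact test, without TMM factors, without the low-count filter and at thinned depth. Pfkp, the platelet isoform, was called in none of the 6 comparisons, at -0.10 to 0.29, and neither was Pfkl, the liver isoform, at -0.72 to 0.00. With the name form, described below, as a term of the fit Pfkl was called lower in ABTAA-treated (-0.49, adjusted p = 0.0322) and Veptp iECKO mice (-0.67, adjusted p = 0.0174), and within plain names alone in neither (adjusted p = 0.509 and 0.994).

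The ratio of Pfkp to Pfkm counts was higher in UUO by 1.49 on the log2 scale in IgG-treated mice (adjusted exact permutation p = 0.00315), by 1.25 in ABTAA-treated (adjusted permutation p = 0.00787) and by 1.16 in Veptp WT mice (adjusted permutation p = 0.0028). In Veptp iECKO mice it was higher by 0.65 (permutation p = 0.0346, adjusted p = 0.0779), and turned to -0.12 within plain library names. It was higher by 1.49 in Pdgfb WT mice (adjusted permutation p = 0.0701) and by 0.30 in the libraries labelled Pdgfb iKO (adjusted permutation p = 0.408). The regulators Pfkfb2 and Pfkfb3, which set the level of fructose 2,6-bisphosphate, were called in no comparison.

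**Figure D3:**
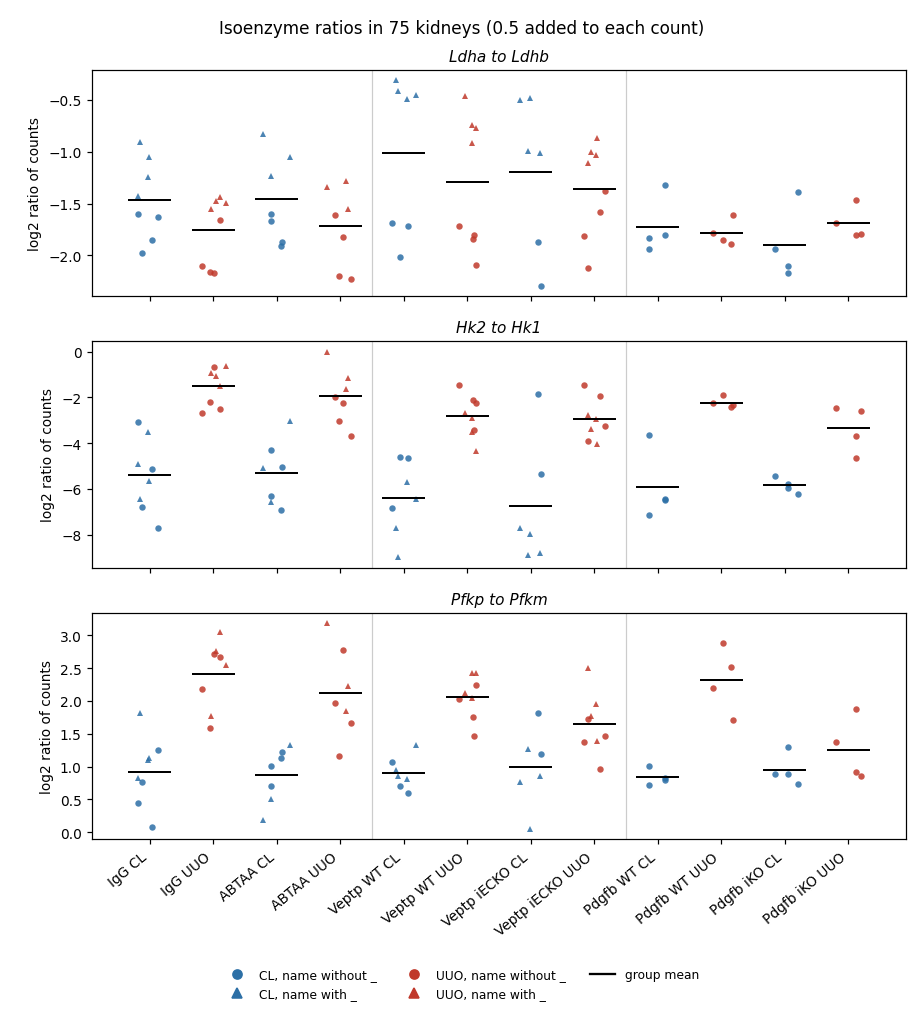
Log2 ratio of counts of 3 isoenzyme pairs in each of the 75 libraries (0.5 added to each count), by group; colours, symbols and bars as in the plot of gluconeogenesis genes. Hk2 to Hk1 is higher in UUO in all 6 kinds of mice, but CL libraries with no Hk2 count, such as 5 of 8 with IgG, are placed by the added 0.5 and their depth, while Ldha to Ldhb shows the 2 name forms apart in the Veptp arm.

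At the middle and lower steps of glycolysis 7 members fell in IgG-treated mice. There Tpi1 (triose phosphate isomerase) fell by 0.55, Pgk1 (phosphoglycerate kinase) by 0.65, Pgam1 (phosphoglycerate mutase) by 0.79, Pkm (pyruvate kinase M) by 0.46, Aldoa (aldolase A) by 0.35, Eno1 (enolase) by 0.50 and Gapdh by 0.48 on the log2 scale. The call of Eno1 (adjusted p = 0.0427) was lost when any 1 of 9 libraries was left out (adjusted p at most 0.108), and that of Gapdh (adjusted p = 0.0208) without IgG CL replicate 7 (adjusted p = 0.0514). Eno1 has a near-identical copy in the table, Eno1b, and reads may have been split between them. Pgam1 fell in 5 comparisons, by 0.40 in ABTAA-treated, 0.56 in Veptp WT, 0.50 in Veptp iECKO and 0.93 in Pdgfb WT mice, and its call in ABTAA-treated mice was lost without ABTAA CL replicate 6 (adjusted p = 0.0556). In ABTAA-treated mice Pgk1 (-0.45, adjusted p = 0.00776) and Pkm (-0.46, adjusted p = 0.0199) also fell, and the call of Pkm was lost without either of 2 libraries (adjusted p at most 0.0917). Pkm fell in Veptp iECKO mice by 0.67 (adjusted p = 0.0264), a call lost without any 1 of 4 libraries (adjusted p at most 0.0954). Within plain library names alone, a form described below, the calls of Aldoa, Eno1, Gapdh and Pkm with IgG were lost. So were those of Pgam1, Pgk1 and Pkm with ABTAA and of Pgam1 and Pkm in Veptp iECKO mice (adjusted p between 0.0637 and 0.84 in all). That of Aldoa with IgG was also lost within names with a low line (adjusted p = 0.142). With the name form in the fit Eno1 and Tpi1 were also called lower with ABTAA, Pgk1 and Tpi1 in Veptp WT and Eno1 and Pgk1 in Veptp iECKO mice. Without TMM factors the calls of Aldoa, Eno1, Gapdh and Pkm with IgG and of Pgam1 and Pkm with ABTAA were lost. The same held for Pgam1 in both kinds of Veptp mice and Pkm in Veptp iECKO mice.

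In Pdgfb WT mice every gene of the triose and lower steps but Pklr was called lower. The size of these falls was not tested against that in the other kinds of mice. Gapdh, the glyceraldehyde 3-phosphate dehydrogenase, fell from 485, 1284, 702 and 836 to 422, 365, 352 and 414 CPM without overlap (log2 fold change -1.09, SE 0.19, adjusted p = 5.11e-05). Pgk1 fell from 699, 678, 752 and 734 to 363, 342, 401 and 397 (-0.93, SE 0.11, adjusted p = 2.94e-07). Tpi1 (-0.85), Eno1 (-0.79), Aldoa (-0.55), Pkm (-0.55) and Gpi1, the glucose 6-phosphate isomerase (-0.58), fell as well. The Pkm call was lost without Pdgfb WT CL replicate 2 (adjusted p = 0.0724). The calls of Aldoa, Eno1, Gpi1 and Pkm were lost without the libraries holding both Xist and Y-linked counts, described below. Those of Aldoa, Gpi1 and Pkm were also lost without TMM factors. With the name form in the fit Gpi1 was called lower in IgG-treated and Veptp iECKO mice as well. Gapdh and Hprt both served as references in the study's quantitative PCR. Hprt moved by 0.40 in IgG-treated (adjusted p = 0.0431), 0.48 in ABTAA-treated (adjusted p = 0.0295) and -0.01 in Pdgfb WT mice. In the 4 comparisons other than those of IgG-treated and Pdgfb WT mice Gapdh moved by -0.36 to -0.19 without a call. With a replicate block on the numbers in library names, described below, Gapdh was called lower in Veptp WT mice.

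Pyruvate kinase genes were called in opposite directions in IgG-treated and Pdgfb WT mice, where Pkm fell and Pklr rose. Pklr encodes the liver and red cell form, and its lowest, median and highest CPM in IgG-treated mice were 9.19, 16.4 and 22.2 in CL and 18.5, 36.9 and 42.2 in UUO (log2 fold change 1.12, SE 0.30, adjusted p = 0.00325, and 0.0815 within plain names alone). It rose in Veptp WT mice by 1.63 (SE 0.50, adjusted p = 0.0204) and in Pdgfb WT mice from 20.0, 22.3, 22.1 and 19.9 to 43.3, 43.5, 36.9 and 44.1 (0.99, SE 0.23, adjusted p = 0.00132). With ABTAA it stood at 0.79 (adjusted p = 0.0512), in Veptp iECKO mice at 1.13 (adjusted p = 0.217) and in the libraries labelled Pdgfb iKO at 0.80 (adjusted p = 0.0657). With the name form as a term of the fit Pklr was called higher with ABTAA (0.78, adjusted p = 0.0317) and in Veptp iECKO mice (1.36, adjusted p = 0.000635), though within plain names alone it stood at 0.56 (adjusted p = 0.415) and -1.14 (adjusted p = 0.728). Erythroid markers were called lower in IgG-treated (3 of those tested) and Pdgfb WT mice (2) and in no other UUO comparison.

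At the lactate step Ldha, Ldhb and Ldhd were called lower in Pdgfb WT mice and, without a further term in the fit, in no other comparison with UUO. Ldha encodes lactate dehydrogenase A. It fell there from 728, 870, 676 and 772 to 588, 507, 482 and 544 CPM (log2 fold change -0.52, SE 0.13, adjusted p = 0.00225). Ldhb fell by 0.47 (adjusted p = 0.0292, lost when any 1 of 5 libraries was left out, at most 0.0972). Ldhd, the D-lactate dehydrogenase, fell by 0.92 (adjusted p = 0.00768). All 3 Pdgfb WT calls were lost without TMM factors and with all 12 groups in 1 fit. Those of Ldha and Ldhb were also lost without the libraries holding both Xist and Y-linked counts, described below. The calls of Ldhd depend on the fit. With the name form as a term it was also called lower in Veptp WT mice (-0.84, adjusted p = 0.029). With a replicate block on the numbers in library names, described below, it was called lower in IgG-treated and Veptp WT mice. With Xist as a term it was called lower in ABTAA-treated (-0.64, adjusted p = 0.0271) and Veptp iECKO mice (-0.81, adjusted p = 0.00956) and higher in the libraries labelled Pdgfb iKO (0.73, adjusted p = 0.0176). In the other 5 comparisons Ldha lay between -0.16 and 0.05. The ratio of Ldha to Ldhb counts differed in none of 9 comparisons (lowest adjusted permutation p = 0.213). The lactate transporter gene Slc16a1 was not called in any comparison, with log2 fold changes of 0.07 to 0.33 after UUO. Slc16a3, a second lactate transporter gene, was too low to be tested, with group means of 0.888 to 5.43 CPM.

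In the pentose phosphate pathway the oxidative genes rose where they were called and the others did not pass the test after UUO. Pgd encodes 6-phosphogluconate dehydrogenase. It rose in IgG-treated mice from 61.7, 105 and 126 to 115, 134 and 195 CPM (log2 fold change 0.56, SE 0.15, adjusted p = 0.00356), in ABTAA-treated mice by 0.56 (adjusted p = 0.00663) and in Veptp WT mice by 0.58 (adjusted p = 0.00996). It also rose in those labelled Pdgfb iKO, from 110, 52.5, 102 and 104 to 160, 182, 171 and 152 without overlap (0.82, SE 0.16, adjusted p = 0.00293), the only call of that comparison kept whichever library was left out. In Pdgfb WT mice it rose from 114, 109, 84.1 and 109 to 154, 133, 137 and 124 (0.40, adjusted p = 0.0472), a call lost when any 1 of 12 libraries was left out (adjusted p at most 0.162). G6pdx, the glucose 6-phosphate dehydrogenase gene, was called higher only in IgG-treated mice (0.76, SE 0.26, adjusted p = 0.021). That call was lost without IgG CL replicate 1 or IgG UUO replicate 8 (adjusted p at most 0.106) or within plain names alone (adjusted p = 0.216). With ABTAA its mean went from 21.7 to 30.4 CPM without a call, and its response did not differ between ABTAA and IgG by edgeR's test. The Pgd calls with IgG and ABTAA were lost within names with a low line (adjusted p = 0.179 and 0.127). The table also lists G6pd2, a near copy of G6pdx. Tkt (transketolase), Taldo1 (transaldolase) and Rpia (ribose 5-phosphate isomerase, tested in the Veptp and Pdgfb arms) lay between -0.37 and 0.15.

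Further genes of these pathways stood on 3 lists of 31, 8 and 7 genes that hold no member. In IgG-treated mice 16.0% and 18.4% of all genes tested were called higher and lower. Of 20 other glycolysis, lactate and sugar genes tested in IgG-treated mice 1 rose (Pgm2) and 14 fell, led by Slc16a7 (-2.78), Aldoc (-2.58), Pgam2 (-2.52), the fructose transporter gene Slc2a5 (-2.06), the glucose transporter gene Slc2a4 (-1.95) and Sord (-1.57). Of the 8 other gluconeogenesis genes 5 fell, namely Slc37a4 (-1.62), Pcx (-1.11), Mdh1 (-1.06), Got1 (-0.97) and Slc2a2 (-0.75). Slc37a4 encodes the transporter that brings glucose 6-phosphate to the enzyme encoded by G6pc, and Pcx encodes pyruvate carboxylase. The exception was Pck2, the mitochondrial counterpart of Pck1, which rose by 0.92 in IgG-treated, 0.78 in ABTAA-treated, 0.92 in Veptp WT, 1.12 in Veptp iECKO and 1.33 in Pdgfb WT mice (adjusted p between 0.00034 and 0.00932), and stood at 0.75 in the libraries labelled Pdgfb iKO (adjusted p = 0.205). Of the 7 other pentose phosphate genes H6pd rose (0.76) and Prps2 fell (-1.06) in IgG-treated mice.

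In the remaining UUO comparisons the first of these lists gave 1 rise and 11 falls of 20 tested in ABTAA-treated mice, against 12.7% and 12.5% of all genes. Of 24 tested in the other arms there were 2 and 8 in Veptp WT (10.0% and 8.38% of all genes), 1 and 4 in Veptp iECKO (4.47% and 3.48%), 2 and 14 in Pdgfb WT (17.9% and 19.4%) and 0 and 3 in the libraries labelled Pdgfb iKO (3.95% and 2.41%). The gluconeogenesis list, with all 8 tested, gave 1 and 5, 1 and 3, 1 and 1, 1 and 5, and 0 and 0 in the same order. The pentose phosphate list, with all 7 tested, gave 1 and 2, 1 and 1, 0 and 1, 1 and 3, and 0 and 1.

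ABTAA was compared with IgG to ask whether TIE2 activation altered these levels. No member differed between ABTAA- and IgG-treated mice in UUO kidneys, in CL kidneys or in the size of the UUO response by edgeR's quasi-likelihood test, nor did any gene of the 9579 tested (0% called in each). At an unadjusted p below 0.05 stood 344, 311 and 323 of all genes and 3, 0 and 3 members. In UUO kidneys G6pc was at 46.7 to 132 CPM with ABTAA and 6.04 to 104 with IgG, a log2 difference of 0.61 (95% interval 0.00 to 1.22). Fbp1 differed by 0.48 (0.12 to 0.83), Khk by 0.50 (0.15 to 0.84) and Pck1 by 0.43 (-0.06 to 0.92), all with overlapping libraries and an adjusted p of 0.999. The 29 members tested lay between -0.29 and 0.61 in UUO and between -0.25 (Gapdh) and 0.28 (Pfkm) in CL kidneys. These intervals leave room for differences of the size of 1 on the log2 scale in G6pc, so a p above the threshold does not show that the treatments act alike.

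The comparison of libraries labelled Veptp iECKO with those labelled Veptp WT gave the same count. Veptp itself (Ptprb) was not called lower in either kidney, and 4 numbers in library names join opposite genotypes, as described below. No member and no gene of 11916 differed between Veptp iECKO and Veptp WT mice in UUO kidneys, in CL kidneys or in the UUO response (0% called in each), while 424, 230 and 323 genes and 0, 0 and 1 members (Glyctk, 0.46) had an unadjusted p below 0.05. In UUO kidneys the differences were 0.23 for G6pc (95% interval -0.43 to 0.89), 0.41 for Pck1 (-0.27 to 1.08), 0.21 for Fbp1 (-0.41 to 0.83) and 0.29 for Khk (-0.29 to 0.87). The lowest was that of Slc16a1, at -0.57 in UUO and -0.66 in CL kidneys. The ratio of Pfkp to Pfkm was lower in Veptp iECKO than in Veptp WT UUO kidneys by 0.42 (exact 2-sided permutation p = 0.0522, adjusted p = 0.108).

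The libraries labelled Pdgfb iKO differed from Pdgfb WT in obstructed kidneys. Of 31 members tested 14 were higher and none lower, where 12.0% and 6.60% of 10923 genes were called higher and lower, with a median log2 difference of 0.38 against -0.02 over all genes. They were the 3 gluconeogenic genes, 10 glycolytic genes and Tkt. In CL kidneys no member and no gene was called (0%), with 379 genes and 0 members at an unadjusted p below 0.05 and G6pc at -0.20 (95% interval -0.52 to 0.12). The UUO response itself differed in 9 members, all with a smaller fall or a shift upward, where 6.66% and 1.90% of genes were called higher and lower (median 0.42). Both comparisons share the UUO libraries and are not independent.

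G6pc led, 5.36-fold higher in UUO kidneys labelled Pdgfb iKO than in Pdgfb WT (log2 difference 2.42, SE 0.19, adjusted p = 4.28e-09; difference in response 2.62, SE 0.25, adjusted p = 3.22e-07). Khk was higher by 1.35 (adjusted p = 3.33e-07), Pck1 by 1.34 (adjusted p = 0.000386) and Fbp1 by 1.27 (adjusted p = 1.85e-06). In all 4 genes each of the 4 libraries labelled iKO lay above each WT library, as the CPM values given above show. In UUO kidneys the calls of G6pc, Fbp1 and Khk were kept in every alternative run made for this comparison. In the response G6pc kept its call, while those of Fbp1 and Khk were lost with all 12 groups in 1 fit. Runs by name form, with a replicate block or without libraries with Xist and Y counts could not be made here. With all 12 groups of the series in 1 fit, 5 members were called in UUO kidneys and 1 in the response. The share of all genes called in that fit is not given beside these counts.

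Ldhd stood at 507, 435, 378 and 252 CPM in UUO libraries labelled Pdgfb iKO and at 274, 199, 147 and 164 in WT, with overlap (log2 difference 0.98, SE 0.27, adjusted p = 0.0108). Galm (0.76), Glyctk (0.74), Tpi1 (0.70), Pgk1 (0.67) and Pgam1 (0.65) followed, each without overlap and with an adjusted p between 0.00011 and 0.00345. Pfkm was higher by 0.80 (adjusted p = 0.0123), lost without Pdgfb iKO UUO replicate 3 (adjusted p = 0.0676). Ldha (0.43, adjusted p = 0.0201), Tkt (0.41, adjusted p = 0.0284) and Aldoa (0.41, adjusted p = 0.049) lost their calls when any 1 of 3, 4 and 11 libraries was left out (adjusted p at most 0.059, 0.112 and 0.124).

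The response differed by 1.52 in Khk, 1.49 in Ldhd, 1.3 in Pck1, 1.23 in Fbp1, 0.95 in Glyctk, 0.86 in Galm, 0.74 in Tpi1 and 0.70 in Pgk1. The Galm call was lost when any 1 of 6 libraries was left out (adjusted p at most 0.0777). Ldhd fell in Pdgfb WT mice and stood at 0.57 (adjusted p = 0.237) in the libraries labelled Pdgfb iKO. Hk2, at 10.8 to 13.9 CPM in WT and 0 to 9.40 in the libraries labelled iKO, did not overlap but was not called (-0.86, SE 0.44, adjusted p = 0.184).

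**Figure D4:**
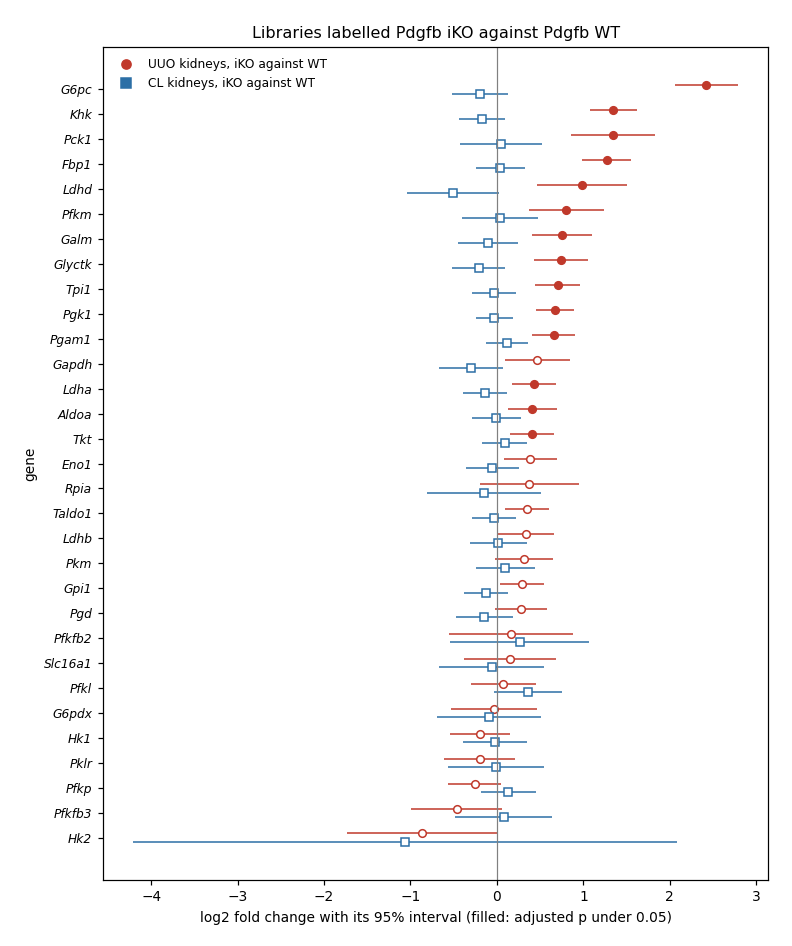
Log2 difference between libraries labelled Pdgfb iKO and Pdgfb WT with its 95% interval for the 31 members tested, in UUO (red circles) and CL kidneys (blue squares); filled symbols have an adjusted p below 0.05. In UUO 14 members are called, all higher, led by G6pc at 2.42, and in CL kidneys none.

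Of the genes beyond the members, 11 of 24 tested on the list of other glycolysis, lactate and sugar genes were higher in the UUO kidneys labelled Pdgfb iKO and none lower (12.0% and 6.60% of all genes), among them Pgam2 (2.15), Slc2a4 (1.86), Aldoc (1.71), Slc16a7 (1.57), Sord (1.55) and Slc2a5 (1.25). On the gluconeogenesis list 4 of 8 were higher, among them Slc37a4 (1.32), Pcx (1.08) and Mdh1 (1.02), while Pck2 stood at -0.51 (adjusted p = 0.197). On the pentose phosphate list 3 of 7 were higher and 1, Prps1, lower. The difference in UUO response was called higher in 10, 2 and 0 genes of these lists and lower in none, against 6.66% and 1.90% of all genes.

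Tubule markers were higher in the same libraries: 9 of 10 of the proximal tubule, 3 of 4 of the thick ascending limb, both of the distal convoluted tubule and 1 of 5 of the collecting duct, besides 3 erythroid markers. All 6 fibroblast and myofibroblast markers, 4 of 8 macrophage and 3 of 5 endothelial markers were lower. The proximal tubule sum was 4809 to 9975 CPM in UUO kidneys labelled Pdgfb iKO and 2885 to 3611 in WT, and the fibroblast sum 390 to 941 and 1116 to 1529. Proximal tubule markers and the members with lower UUO levels thus moved together here too, and the part of tissue composition in the difference was not tested. All 4 of these iKO UUO libraries are among the 24 of the series that held at least 10 counts both of Xist and of Y-linked genes, so the comparison could not be run without such libraries. Where it could be done, leaving them out gave 4 members called higher and 11 lower after UUO in IgG-treated mice (11.6% and 12.0% of all genes in that fit) and 2 and 8 in ABTAA-treated mice (8.61% and 7.71%). The counts were 2 and 4 in Veptp WT (8.20% and 5.76%), 1 and 8 in Veptp iECKO (4.06% and 3.61%) and 2 and 11 in Pdgfb WT mice (8.42% and 10.4%).

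After UUO the tubule markers called were lower and the fibroblast and macrophage markers called were higher, while endothelial markers were called in both directions. All 6 fibroblast and myofibroblast markers were higher in mice given IgG or ABTAA and in both kinds of WT mice, 2 in Veptp iECKO mice and 3 in the libraries labelled Pdgfb iKO. Macrophage markers were higher in 8, 7, 7 and 8 of 8, and in 6 in both of the latter. Thick ascending limb markers were lower in 3, 3, 2 and 3 of 4 and in 1 and 1, distal convoluted tubule markers in 2, 1, 1 and 2 of 2 and in 1 and 1, and collecting duct markers in 2, 2, 3 and 2 of 5 and in 3 and 0. Endothelial markers were called higher in 2 (IgG), 1 (ABTAA) and 1 (Pdgfb WT) and lower in 1 each of IgG-treated and Veptp iECKO mice and the libraries labelled Pdgfb iKO. Podocyte markers were called higher in 1 (IgG) and lower in 2 (Pdgfb WT) and 1 (labelled Pdgfb iKO), adipocyte markers higher in 1 (IgG) and lower in 1 (Pdgfb WT), and no T or B cell marker was tested.

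Library names came in 2 forms, 45 plain and 30 with a low line (_), and the labels do not say what the form stands for. Both forms occur in all 8 groups of the first 2 arms, while the third has none with a low line. In the Veptp arm such names carry 8 numbers, each shared by a CL and a UUO library, and 4 of these numbers join libraries labelled with opposite genotypes. The labels do not say what a number marks, so each value is given here by its labelled genotype. The level of 13 of 29 members in the ABTAA arm and of 20 of 31 in the Veptp arm differed between the forms, where 40.2% and 59.4% of all genes did. In the Veptp arm Pklr (1.70), G6pdx (1.44) and Ldhd (1.25) were higher and Ldhb (-1.36), Fbp1 (-1.06), Pck1 (-1.03), Khk (-0.97) and Pgk1 (-0.97) lower in names with a low line. The UUO response differed between the forms in no member of either arm by edgeR's quasi-likelihood test, with 5 and 4 members at an unadjusted p below 0.05, and in 0% and 0.436% of all genes.

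Within the forms, 10 of 28 members tested in both were called in both in IgG-treated mice, 6 only with and 2 only without a low line. The counts were 4, 11 and 1 of 28 in ABTAA-treated mice, 9, 1 and 0 of 26 in Veptp WT and 0, 16 and 0 of 26 in Veptp iECKO mice, whose form without a low line holds only 2 CL libraries. Of all genes tested, 29.1% were called with and 23.3% without a low line in IgG-treated, 24.1% and 11.6% in ABTAA-treated, 25.7% and 14.0% in Veptp WT and 21.3% and 0% in Veptp iECKO mice. In Veptp iECKO mice G6pc changed by -2.36 with a low line, from 250 to 456 CPM in CL to 32.2 to 98.4 in UUO. Without one it stood at 126 and 181 CPM in CL and 78.8 to 230 in UUO (log2 fold change -0.05, adjusted p = 0.994). Pklr stood at 1.82 and -1.14 (adjusted p = 0.728 for the latter). In Veptp WT mice G6pc fell in both forms, by 1.92 and 1.64. With the form as a term of the fit more genes were called in general. The members called numbered 3 higher and 16 lower in IgG-treated mice, against 18.7% and 21.6% of all genes, and 2 and 14 in ABTAA-treated mice (15.5% and 16.9%). They numbered 3 and 11 in Veptp WT (16.6% and 17.3%) and 2 and 14 in Veptp iECKO mice (10.6% and 10.8%).

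**Figure D5:**
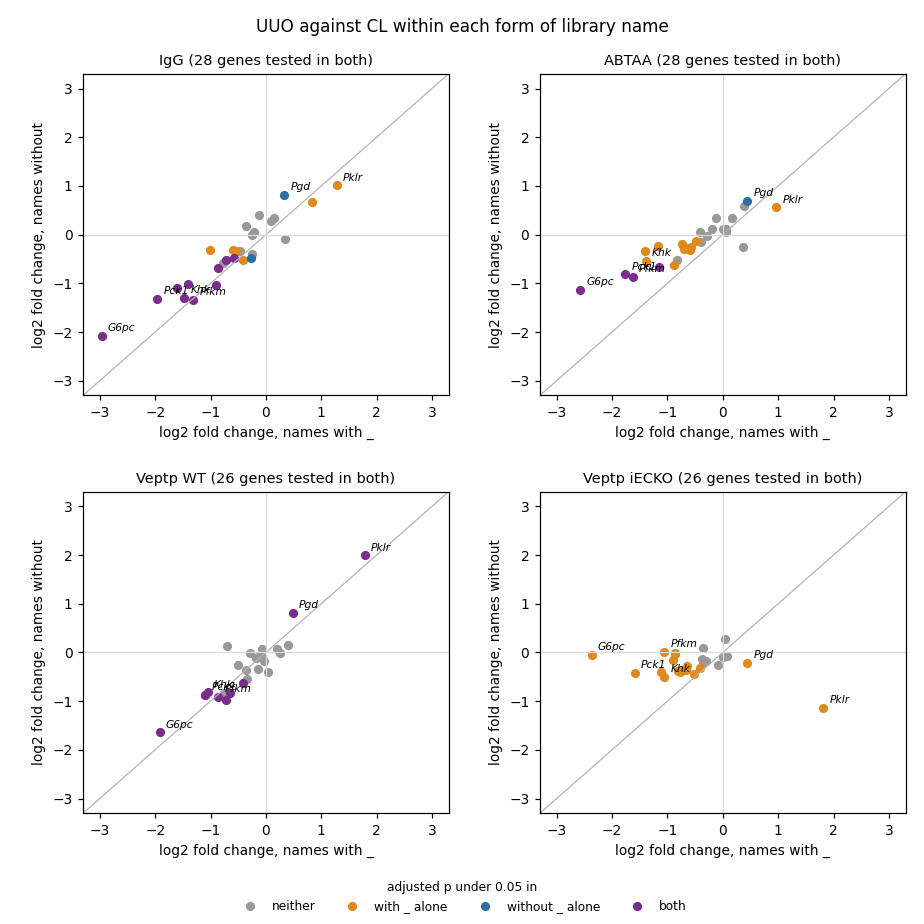
Log2 fold change of UUO against CL in libraries named with (x axis) and without (y axis) a low line, 1 point per member tested in both; colour gives the form in which the adjusted p was below 0.05. In Veptp iECKO mice (26 members) G6pc is at -2.36 with and -0.05 without, and Pklr at 1.82 and -1.14.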

How the data were processed

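RNA of 75 whole kidneys was prepared with a protocol based on Smart-seq3, which tags molecules with unique identifiers, each sample in 4 wells. According to the study's methods and the submitters' processing notes, the authors aligned reads with STAR 2.7.3a to mm10, removed duplicates with UMI-tools 1.1.4 and counted with featureCounts of Subread 1.4.6-p5; the annotation, strand setting and treatment of multiply mapped reads are not stated in the sources used here. The deposited table holds raw counts per gene, not normalized, and 4299 of its genes have no count.

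From these counts differential expression was tested with edgeR 4.0.16 in R 4.3.3 (limma 3.58.1), by arm over its 4 groups: TMM scaling, filterByExpr by group (minimum count 10, minimum total 15), quasi-likelihood fits, and Benjamini-Hochberg adjustment over all genes tested in the arm at 0.05. Intervals are at 95% and use the fitted standard error. Ratios of isoenzyme counts (0.5 added) were compared between groups by exact 2-sided permutation of the libraries, with Benjamini-Hochberg adjustment over 27 comparisons (scipy 1.17.1, numpy 2.4.6, pandas 2.3.3 and Python 3.11.15; plots by matplotlib 3.10.9). The scripts were tested on simulated data. The members and lists were chosen with earlier results of these data known. All 32 members are reported; of each further list, counts and up to 6 genes with the largest absolute change among those called in IgG-treated mice are named. ACGTCA was added to the motifs after the data were examined.

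Alternatives were DESeq2 1.42.0, the exact test of edgeR that the study used, no TMM factors, no low-count filter, all 12 groups in 1 fit, libraries thinned to 1 depth, Xist as a covariate, the name form as a covariate or each form alone, a replicate block and each library left out. In the ABTAA arm 3 numbers in names with a low line (_) were each shared by a CL and a UUO library of ABTAA-treated mice. They were taken as pairs, though the labels do not say what a number marks. Deviations from the mean of each group and name form correlated at 0.160 to 0.387 within pairs (median -0.214 for different numbers). Deviations of the 3 libraries behind such a mean cancel out, which pulls the median for different numbers down, so it is no neutral baseline. Blocking on these numbers gave 20 members called in IgG-treated and 14 in ABTAA-treated mice, without the share of all genes in that fit beside them. Nothing in the labels says which libraries of different groups come from separate mice, so p-values measure the spread between these libraries.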

Additional observations from a re-analysis of the deposited data

Results flagged for a closer look

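A single value was set apart by Dixon's test in 33 of 384 sets of 1 gene in 1 group. Chance sets a value apart in about 1 in 20 such groups, and sets of different genes share libraries. Values are CPM, with the range of the other libraries of the group in parentheses, and no cause was tested.

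Some libraries stood apart in several genes. Veptp WT CL replicate 3 was high in Aldoa at 1160 (645 to 783) and Ldha at 1110 (659 to 804), and Pfkfb3 was at 0 there (17.9 to 36.4). That library had the lowest TMM factor, 0.676, which enters these values. Its total was 263848, with 207 counts of Aldoa and 198 of Ldha. Veptp WT UUO replicate 8 was low in Aldoa at 496 (689 to 815) and Ldha at 526 (665 to 814) and high in Glyctk at 159 (74.7 to 105). IgG CL replicate 4 was high in Ldhb at 3359 (1851 to 2432) and Pgk1 at 861 (588 to 700). The library labelled Pdgfb iKO CL replicate 2 was high in Khk at 1113 (903 to 932) and low in Pgd at 52.5 (102 to 110) and Rpia at 7.5 (13.0 to 14.1). Pdgfb WT CL replicate 3 was low in Pgd at 84.1 (109 to 114) and Taldo1 at 314 (355 to 358). It held the only Hk2 counts of its group, at 4.43 from 3 counts. Veptp iECKO UUO replicate 3 was low in Pfkl at 39.3 (57.1 to 79.4) and high in Slc16a1 at 51.8 (12.8 to 22.1). Veptp iECKO CL replicate 2 held Hk2 at 13.5, from 3 counts, with the other libraries at 0, and Pfkfb3 at 0 (10.7 to 36.8).

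Among the gluconeogenic genes 1 value stood apart, G6pc in Veptp WT UUO replicate 4 at 15.3 (54.0 to 141). At the hexokinase step Hk1 was low in ABTAA CL replicate 7 at 43.4 (68.6 to 92.6) and in IgG CL replicate 2 at 41.1 (61.9 to 87.2). Hk2 was at 0.997, from 1 count, in the library labelled Pdgfb iKO CL replicate 4, with the others at 0. At the phosphofructokinase step Pfkp was low in IgG UUO replicate 4 at 60.4 (111 to 174) and Pfkl in the library labelled Pdgfb iKO UUO replicate 3 at 47.8 (74.0 to 76.7). Pfkfb2 was low in ABTAA UUO replicate 2 at 2.97 (8.4 to 12.6) and IgG CL replicate 7 at 2.48 (7.62 to 18.4), each from 1 count.

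At the triose and pyruvate steps Aldoa was low in Veptp iECKO CL replicate 6 at 793 (919 to 953) and Tpi1 in ABTAA UUO replicate 3 at 565 (714 to 840). Pklr was low in ABTAA UUO replicate 4 at 0 (17.8 to 43.5), IgG UUO replicate 6 at 18.5 (28.7 to 42.2) and Pdgfb WT UUO replicate 3 at 36.9 (43.3 to 44.1). In the pentose phosphate pathway G6pdx was low in ABTAA CL replicate 3 at 6.70 (18.9 to 32.3) and Taldo1 high in Pdgfb WT UUO replicate 1 at 332 (278 to 283).

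The UUO response differed between the libraries labelled Pdgfb iKO and Pdgfb WT in 9 members by edgeR's test of the difference itself: G6pc (log2 difference 2.62), Khk (1.52), Ldhd (1.49), Pck1 (1.3), Fbp1 (1.23), Glyctk (0.95), Galm (0.86), Tpi1 (0.74) and Pgk1 (0.70).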

How the results depend on the processing

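Shares of all genes called stand above for the runs by name form and those without Xist and Y libraries. For the other runs they are not given, so those member counts are not read as results about the members. Fewer members were called at lower depth. With every library thinned to the shallowest of its arm the counts (main values in parentheses) were 6 in IgG-treated (18), 4 in ABTAA-treated (12), 2 in Veptp WT (9), 0 in Veptp iECKO (6) and 13 in Pdgfb WT mice (21) and 0 in the libraries labelled Pdgfb iKO (5) after UUO, 6 for the latter against Pdgfb WT in UUO (14) and 3 for the response (9), so depth limits what can be called. Thinning also turned Galm to 0.027 and Glyctk to 0.077 in ABTAA-treated mice.

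In Veptp iECKO mice the count was 10 with Xist as a covariate, 12 with all 12 groups in 1 fit, 2 with the exact test, 2 without TMM factors, 2 without the low-count filter, 16 with the name form as a covariate, 17 with a low line alone and 0 without one (Pfkm then at 0.0082). The name form covariate gave 14 in Veptp WT mice, and names without a low line 5 in ABTAA-treated mice. In the libraries labelled Pdgfb iKO it was 3 with DESeq2, 3 with the exact test and 1 with all 12 groups. That fit gave 5 for the latter against WT in UUO and 1 for the response, and no TMM factors gave 5 for the response. Leaving out libraries with Xist and Y counts, chosen after seeing the data, gave 13 in Pdgfb WT mice. Without the low-count filter the response by name form was called in 3 (ABTAA arm) and 2 members (Veptp arm), among 117 and 196 of all genes. The causes were not tested.

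In the Veptp arm the numbers in names with a low line were not taken as pairs, since 1 of the 8 correlations was under 0.1 (0.058 to 0.426, median 0.236 against -0.031 for different numbers), 4 of 8 numbers correlated best with themselves, and 4 numbers join opposite genotypes. The 2 libraries of each number were alike in holding mostly Xist or mostly Y-linked counts, a hint from the data that a number may mark 1 animal. The labelled genotype of those 4 numbers would then be in doubt, which was not tested. A replicate block on them gave 19 in Veptp WT and 15 in Veptp iECKO mice. In Veptp WT mice the block added Eno1, Fbp1, Gapdh, Hk1, Ldhd, Pck1, Pfkl, Pgk1, Pkm and Tpi1, all lower. In Veptp iECKO mice it added Pklr, higher, and Eno1, Fbp1, Galm, Hk1, Khk, Pck1, Pfkl and Pgk1, lower. The block changed no count by over 1.5 times in the ABTAA arm. No paired analysis was possible in the Pdgfb arm because its names carry no such numbers.

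With each library left out in turn the counts ranged from 16 to 19 (IgG), 10 to 15 (ABTAA), 7 to 10 (Veptp WT), 4 to 9 (Veptp iECKO), 18 to 21 (Pdgfb WT) and 1 to 6 (labelled Pdgfb iKO, lowest without its CL replicate 2), 11 to 17 (against WT in UUO) and 8 to 12 (response). Log2 ratios then ranged from -0.35 to 0.065 for Hk2 to Hk1 in Veptp iECKO against WT UUO, from -0.036 to 0.12, -0.13 to 0.074 and -0.18 to 0.050 for Ldha to Ldhb in ABTAA against IgG UUO, Pdgfb WT UUO against CL and Veptp iECKO against WT UUO, and from 0.46 to 0.82 and -0.54 to -0.33 for Pfkp to Pfkm in Veptp iECKO UUO against CL and against WT UUO.

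Within a name form, where the smaller groups no longer reached the threshold, Hk2 to Hk1, set in many CL libraries by the 0.5 added, differed after UUO by 3.66 without and 4.10 with a low line (IgG), 2.92 and 3.98 (ABTAA), 3.05 and 3.86 (Veptp WT), 0.96 and 5.05 (Veptp iECKO), and Pfkp to Pfkm by 1.65 and 1.32 (IgG), 0.87 and 1.75 (ABTAA) and 1.08 and 1.27 (Veptp WT). Directions turned in names without a low line for Ldha to Ldhb in Veptp iECKO UUO against CL (0.36) and against WT UUO (0.14) and for Pfkp to Pfkm in Veptp iECKO UUO against CL (-0.12), and with a low line for Hk2 to Hk1 in ABTAA against IgG UUO (0.11) and Veptp iECKO against WT UUO (0.064).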
